A study of Homo sapiens with 12 samples.

Results

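The genes described here are 10 members of the tumour necrosis factor (TNF) receptor superfamily, taken by name from a table of 54261 genes: TNFRSF9, TNFRSF10A, TNFRSF10B, TNFRSF10C, TNFRSF10D, FAS, TNFRSF1A, TNFRSF12A, TNFRSF21 and TNFRSF11B. Their transcripts were compared between 2 lines. HCT116 is a human colorectal carcinoma line, and 3 parental cultures served as controls. HCT116oxR cells came from that line by stepwise exposure to the platinum drug oxaliplatin, from 0.1 µmol/L up to 5 µmol/L, the last step lasting 1 year, and 3 cultures of them were sequenced. The labels describe 1 resistant line whose cultures were grown and harvested separately, so p-values reflect how far cultures of these lines varied and cover 1 selected line. The labels do not say whether the drug was present at harvest.

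Receptors of this family sit at the cell surface as trimers and bind trimeric ligands of the TNF family. Those with a cytoplasmic death domain (TNFRSF10A, TNFRSF10B, FAS, TNFRSF1A and TNFRSF21) can recruit adaptors such as FADD or TRADD. FADD brings in caspase-8, which starts extrinsic apoptosis, whereas TRADD and RIPK1 lead mainly to NF-kB and MAP kinase signalling. Receptors without a death domain, such as TNFRSF9 and TNFRSF12A, bind TRAF proteins directly, and decoy receptors (TNFRSF10C, TNFRSF10D and the secreted TNFRSF11B) bind ligand without passing on a full death signal. In colorectal epithelium this family is best known for responses to TRAIL, FAS ligand and TNF.

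The 6 libraries held 11950069 to 13558077 counts. Of 17511 genes tested, 44.1% changed between the lines (edgeR quasi-likelihood test, Benjamini-Hochberg adjusted p below 0.05 over all genes), 22.3% higher and 21.8% lower in HCT116oxR. The 10 epithelial markers examined summed to 3251 to 3358 CPM (counts scaled to the library total with TMM factors) in parental and 3942 to 4020 CPM in HCT116oxR libraries, with EPCAM, KRT8 and KRT18 present. Of the 8 epithelial markers tested, 5 rose, 1 fell (KRT19, -0.13 ± 0.03, adjusted p = 5.56e-05, edgeR) and 2 did not pass. Of the intestinal markers, VIL1 and CDX1 had 0 to 2 counts in a library, whereas CDX2 had 123 to 204 in parental and 201 to 269 in resistant libraries and rose (log2 fold change 0.51 ± 0.13, adjusted p = 7.04e-04, edgeR). The 15 immune cell markers summed to 4.38 to 6.81 and 3.17 to 4.999 CPM, and 7 of them (PTPRC, CD3D, CD3E, CD3G, CD2, MS4A1 and NKG7) had 0 counts in every library. Of the 3 that were tested, ITGAM fell (95 parental and 50 resistant counts, adjusted p = 0.0218, edgeR), while CD8A (17 and 37 counts) and KLRD1 (60 and 41) did not pass. The 11 fibroblast and endothelial markers summed to 57.2 to 71.4 and 50.7 to 55.96 CPM, most of it COL1A1. Every value below is from bulk RNA, in which fewer cells with a transcript and less RNA per cell cannot be told apart.

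Of the 10 receptor genes, 9 had enough counts to be tested. Of these, 6 were lower in HCT116oxR and 0 were higher, against 21.8% and 22.3% of all genes tested, and 3 did not pass. With DESeq2 and at an unadjusted p below 0.05 in edgeR the numbers were also 6 lower and 0 higher. Every HCT116oxR library lay below every parental library for 5 of the 9, against 24.8% of all genes tested. The median log2 fold change of the 9 was -0.28, and that of all genes was -0.00057. The sizes were uneven: TNFRSF9 was almost lost, TNFRSF10B, TNFRSF10A and TNFRSF1A fell by moderate amounts, and TNFRSF10D and TNFRSF12A differed by small amounts that depended on single libraries.

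**Figure D1:**
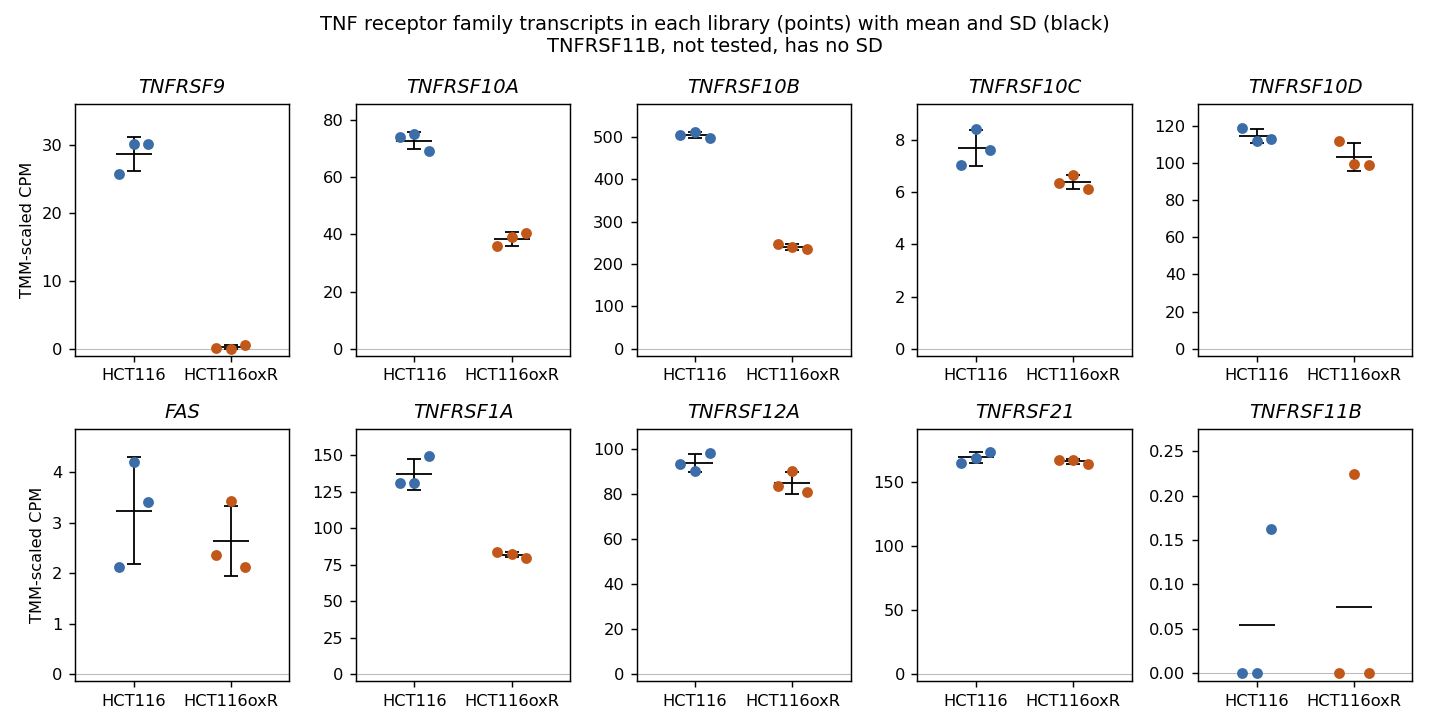
TMM-scaled CPM of the 10 receptor genes in the 3 HCT116 (blue) and 3 HCT116oxR (orange) libraries, 1 point per library, with the mean and SD in black and a separate linear axis for each gene. The libraries separate fully for TNFRSF9, TNFRSF10A, TNFRSF10B, TNFRSF10C and TNFRSF1A and overlap for TNFRSF10D, FAS, TNFRSF12A and TNFRSF21, while TNFRSF11B has at most 3 counts in a library.

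The promoters of a nearly lost receptor gene, a lowered one and one with no detected change are shown first, because the tested receptors share a family but not a size of change. Each run is the 250 bases just before the annotated start from RefSeq (GRCh38.p14), 5′ to 3′ on the gene's strand. The windows were searched on both strands for the NF-kB consensus, for the AP-1 site TGANTCA and for a full p53 site, and capitals mark what was found.
TNFRSF9, chr1:7940840-7941089, minus strand: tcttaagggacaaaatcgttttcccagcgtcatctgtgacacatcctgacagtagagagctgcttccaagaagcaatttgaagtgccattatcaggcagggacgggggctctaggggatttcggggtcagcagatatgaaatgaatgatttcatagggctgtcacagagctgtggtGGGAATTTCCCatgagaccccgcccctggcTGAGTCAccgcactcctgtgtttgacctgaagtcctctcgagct
TNFRSF1A, chr12:6342077-6342326, minus strand: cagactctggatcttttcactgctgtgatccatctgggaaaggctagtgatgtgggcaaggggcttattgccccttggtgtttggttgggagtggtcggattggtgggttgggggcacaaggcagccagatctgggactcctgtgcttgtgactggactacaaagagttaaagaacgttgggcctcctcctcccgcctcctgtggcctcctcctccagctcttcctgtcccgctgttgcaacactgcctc
TNFRSF21, chr6:47309906-47310155, minus strand: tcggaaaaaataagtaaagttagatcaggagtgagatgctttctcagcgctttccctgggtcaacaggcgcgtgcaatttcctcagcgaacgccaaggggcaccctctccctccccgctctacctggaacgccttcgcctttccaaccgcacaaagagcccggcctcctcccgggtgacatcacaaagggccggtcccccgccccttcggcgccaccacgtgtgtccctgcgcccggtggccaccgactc
The TNFRSF9 window held a symmetric NF-kB match, read on both strands over bases 74 to 64 before the start, and an AP-1 match at bases 44 to 38 before it. Neither motif was in the TNFRSF1A or TNFRSF21 window, and none of the 3 windows held a full p53 site. RefSeq gave 3 windows for FAS, which did not pass the test. One of them held an AP-1 match at bases 242 to 236 before its start, and another an NF-kB match at bases 157 to 148 before its own. Among 35116 promoters of the same length, 9.96% held the NF-kB consensus, 6.57% the AP-1 site and 0.0256% a full p53 site. These matches describe letters and say nothing about binding in these cells.

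TNFRSF9 encodes CD137 (4-1BB), a costimulatory receptor best known from activated T cells that signals through TRAF1 and TRAF2. The parental libraries held 341, 359 and 372 counts (25.7, 30.2 and 30.1 CPM). The HCT116oxR libraries held 2, 0 and 7 counts (0.148, 0 and 0.570 CPM). Parental cultures therefore carried the transcript at a steady level, while the resistant cultures were at or near 0 in all 3. The mean fell from 28.7 ± 2.55 to 0.239 ± 0.296 CPM (SD, n = 3 per line), a log2 fold change of -6.90 ± 0.25 (SE, edgeR adjusted p = 6.27e-47). In raw terms 1072 counts stood against 9, a ratio of CPM of 124 with an exact 95% binomial interval of 65.0 to 272 that covers counting error only. The size rested on few resistant counts. Without HCT116oxR replicate 1, 2 or 3 the log2 fold change was -6.66, -6.32 or -8.42. DESeq2 gave -6.97 ± 0.495 (SE). Only 7 of the 17511 genes had a lower log2 fold change.

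No tested protein-coding gene close to TNFRSF9 on chromosome 1 fell with it. Of 8 other tested protein-coding genes starting within 1 Mb, 5 rose and 0 fell (edgeR, adjusted over all genes), with a median log2 fold change of 0.17 and a lowest value of -0.87. Among 75 genes within 5 Mb 26 rose and 23 fell, with a median of 0.037 and a lowest value of -0.94. Of all genes tested, 22.3% rose and 21.8% fell. The pan-leukocyte gene PTPRC and the T cell genes CD3D, CD3E, CD3G and CD2 had 0 counts in both lines, and the T cell gene CD8A had 4 to 8 counts in a parental and 11 to 15 in a resistant library. The myeloid gene ITGAM, lower in HCT116oxR like TNFRSF9, went from 95 to 50 counts, and its part in the result was not tested. TNFSF9, which encodes the ligand of CD137, was present in both lines and was lower in HCT116oxR, at 26.3, 30.8 and 34.5 CPM in parental and 22.05, 25.96 and 21.02 CPM in resistant libraries. The 2 sets of values did not overlap, and the log2 fold change was -0.40 ± 0.10 (adjusted p = 4.41e-04, edgeR). In the main fit the receptor thus fell 120-fold, a size that rests on few resistant counts, and its ligand 1.32-fold.

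The TRAIL receptors were the next group. TNFRSF10B (DR5) and TNFRSF10A (DR4) carry death domains and trigger apoptosis when TRAIL binds. TNFRSF10C (DcR1) is a lipid-anchored decoy with no cytoplasmic domain and TNFRSF10D (DcR2) a decoy with a truncated death domain. Their genes lie side by side within 205 kb of chromosome 8, in the order TNFRSF10B, TNFRSF10C, TNFRSF10D, TNFRSF10A. They are similar in sequence, and how the authors assigned reads with several matches is not given in the sources used here, so some reads may be split among them.

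TNFRSF10B had 504.0, 512.5 and 497 CPM in parental and 249, 240 and 235 CPM in HCT116oxR libraries. All 3 resistant values were well below all parental values and close to each other. The log2 fold change was -1.06 ± 0.03, 2.09-fold lower (edgeR adjusted p = 1.43e-57), and it ranged from -1.09 to -1.04 when single libraries were left out. Its annotation overlaps another protein-coding gene (724 parental and 1258 resistant counts), and reads in the overlap could have gone to either. TNFRSF10A had 73.8, 75.1 and 69.2 CPM in parental and 35.8, 39.0 and 40.5 CPM in resistant libraries. Again no value of one line reached the other, and the log2 fold change was -0.92 ± 0.07, 1.89-fold lower (adjusted p = 9.41e-24).

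The decoy genes between them differed far less. TNFRSF10C had 7.02, 8.41 and 7.61 CPM in parental and 6.34, 6.64 and 6.11 CPM in resistant libraries. Its libraries did not overlap, yet the log2 fold change of -0.27 ± 0.18 did not pass (edgeR adjusted p = 0.242), with a 95% interval of -0.63 to 0.09. TNFRSF10D had 118.8, 112.0 and 112.8 CPM in parental and 112.0, 99.3 and 98.7 CPM in resistant libraries. The highest resistant library touched the parental range, and the fall of 0.15 ± 0.05 on the log2 scale passed narrowly (adjusted p = 0.0141). That call was lost without parental replicate 1, without HCT116oxR replicate 2 and without HCT116oxR replicate 3 (-0.12, -0.12 and -0.11, adjusted p = 0.0888, 0.0759 and 0.117). TNFRSF10C overlaps the lncRNA gene LOC254896 (93 parental and 56 resistant counts).

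The split of TRAIL receptor counts differed between the lines. The 2 decoy genes made up 17.9%, 17.0% and 17.5% of the counts of the 4 genes in parental libraries and 29.4%, 27.5% and 27.6% in HCT116oxR libraries. All resistant libraries were above all parental ones, by far more than the counting error of any library (for example 17.1% to 18.7% for parental replicate 1 and 28.2% to 30.6% for HCT116oxR replicate 1, exact Clopper-Pearson 95% intervals). The mean was 17.5% ± 0.438 in parental and 28.2% ± 1.06 in resistant libraries (SD, n = 3 per line), a difference of 10.7 percentage points. A 2-sided exact permutation test gave p = 0.1, the smallest value that 3 against 3 libraries allow. The decoy counts themselves did not rise, at 1667, 1432 and 1488 in parental and 1605, 1420 and 1287 in resistant libraries. The larger share thus restates the lower TNFRSF10B and TNFRSF10A counts. These shares are of raw counts, not corrected for transcript length, so they compare libraries and do not give the ratio of receptor molecules.

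**Figure D2:**
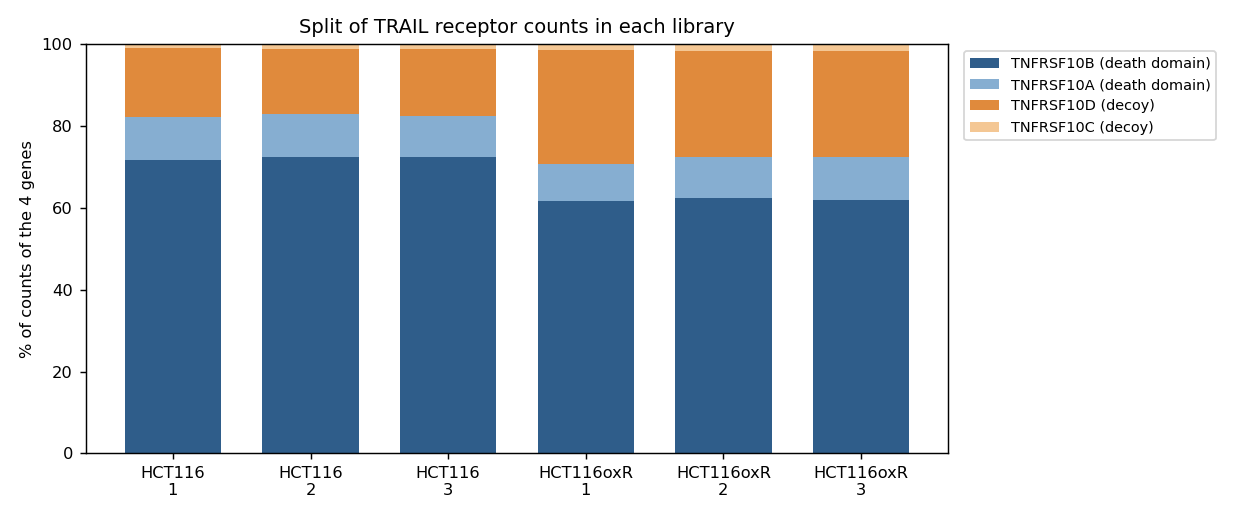
Share of each of the 4 TRAIL receptor genes in their summed counts, in percent, for each of the 6 libraries. The 2 decoy genes (orange shades) take 17.0% to 17.9% in the HCT116 bars and 27.5% to 29.4% in the HCT116oxR bars.

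Genes around the TRAIL receptor cluster went both ways. Of 27 other tested protein-coding genes starting within 1 Mb of TNFRSF10B, 7 rose and 9 fell, where 22.3% and 21.8% of all genes did. Their median log2 fold change was -0.01, with a range of -0.86 to 2.36. Within 1 Mb of TNFRSF10A, 3 of 18 rose and 8 fell, with a median of -0.09. CHMP7, R3HCC1, LOXL2, ENTPD4 and SLC25A37, starting 0.05 to 0.34 Mb beyond TNFRSF10A, all fell (-0.78, -0.62, -0.21, -0.13 and -0.72). Whether TNFRSF10A moved with them was not tested. The lowest neighbour within 1 Mb was PHYHIP (-0.86). TNFRSF10B (-1.06 ± 0.03) lay below it, and TNFRSF10A (-0.92 ± 0.07) only just below it. TNFSF10, which encodes TRAIL itself, had 2 counts in 1 resistant library and 0 in the other 5.

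TNFRSF1A encodes the main receptor for soluble TNF in most tissues. It had 131.2, 130.8 and 149 CPM in parental and 83.5, 82.4 and 79.8 CPM in HCT116oxR libraries. The lines did not overlap, and the resistant values were tightly grouped. The log2 fold change was -0.74 ± 0.05, 1.67-fold lower (edgeR adjusted p = 7.01e-26), and stayed between -0.78 and -0.68 when single libraries were left out. Around it on chromosome 12, 15 of 40 genes tested within 1 Mb rose and 6 fell, against 22.3% and 21.8% of all genes tested. Their median log2 fold change was 0.07. The other TNF receptor gene, TNFRSF1B, was not tested, with 5 parental and 0 resistant counts, and TNF itself had 0 counts in every library.

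**Figure D3:**
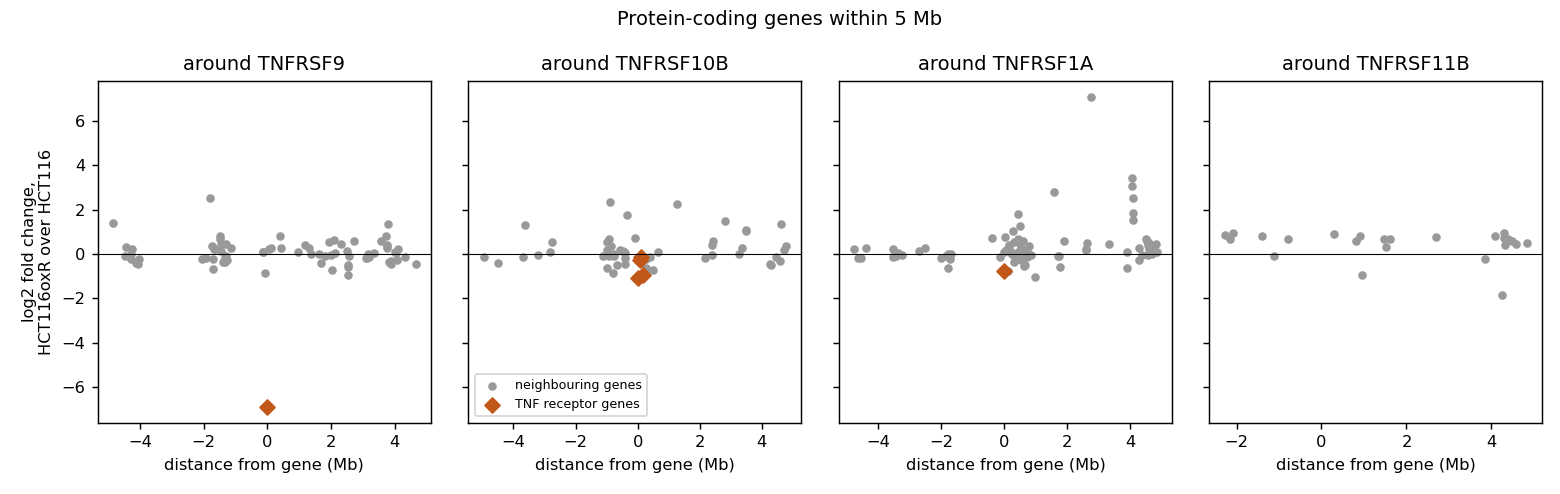
Log2 fold change (HCT116oxR over HCT116) of tested protein-coding genes within 5 Mb, against distance in Mb from TNFRSF9, TNFRSF10B, TNFRSF1A and TNFRSF11B. TNFRSF9 (orange, -6.90) lies far below all of its neighbours. TNFRSF10B lies below the genes around it, and TNFRSF10A only just below the lowest of them. The genes around the untested TNFRSF11B have a median of 0.68.

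FAS encodes the receptor for FAS ligand, which kills through FADD and caspase-8. Its counts were low and variable, at 28, 50 and 42 in parental and 32, 46 and 26 in resistant libraries (2.11, 4.20 and 3.40 against 2.36, 3.43 and 2.12 CPM). The ranges overlapped almost fully, and the log2 fold change of -0.28 ± 0.29 did not pass (edgeR adjusted p = 0.455). The 95% interval of -0.86 to 0.29 leaves a fall or a rise of some size undetectable at this depth. FAS overlaps ACTA2 and FAS-AS1 in the annotation, with 142 and 2 parental counts, and reads in such overlaps could have gone to any of the 3 genes. FASLG, the ligand gene, had 0 counts in every library.

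TNFRSF21 (DR6), a death-domain receptor studied mostly in neurons and lymphocytes, was the most even of the family. It had 165, 169.0 and 173 CPM in parental and 167.2, 167.4 and 163.8 CPM in resistant libraries. The lines overlapped, the log2 fold change was -0.03 ± 0.04 (edgeR adjusted p = 0.665), and the 95% interval ran from -0.11 to 0.06.

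TNFRSF12A (FN14) lacks a death domain and binds TWEAK, a ligand linked to growth and tissue repair. It had 93.1, 89.9 and 97.9 CPM in parental and 83.3, 90.2 and 80.7 CPM in resistant libraries. One resistant library lay inside the parental range. The log2 fold change of -0.14 ± 0.06 passed narrowly (edgeR adjusted p = 0.0285). The call was lost without parental replicate 3, HCT116oxR replicate 1 or HCT116oxR replicate 3 (-0.11, -0.13 and -0.11, adjusted p = 0.145, 0.0936 and 0.173), and with upper quartile scaling (-0.12, adjusted p = 0.0781). TNFSF12, the gene of TWEAK, rose from 1.78 ± 0.993 to 3.91 ± 0.349 CPM, a log2 fold change of 1.11 ± 0.30 (adjusted p = 0.00122). TNFSF12 shares exons with the read-through gene TNFSF12-TNFSF13 (55 parental and 144 resistant counts), so its reads cannot be fully separated.

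TNFRSF11B encodes osteoprotegerin, a secreted decoy for RANKL and TRAIL. It had 0, 0 and 2 counts in parental and 0, 3 and 0 in resistant libraries and was not tested, so no difference could be measured at this depth. Its neighbourhood on the long arm of chromosome 8 was raised. There 4 of 5 tested genes within 1 Mb and 18 of 24 within 5 Mb were higher in HCT116oxR (medians of 0.66 and 0.68). Among all genes tested the share was 22.3%. TNFSF11, the gene of RANKL, had 0 counts in every library.

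The rest of the receptor family was set beside these genes. Of 19 further TNF receptor genes 13 were tested, and 7 rose and 2 fell (edgeR), with a median log2 fold change of 0.41. Over all genes tested, 22.3% rose and 21.8% fell. EDA2R, a receptor for ectodysplasin-A2 that is also a known p53 target, rose from 0.345 ± 0.418 to 2.68 ± 0.921 CPM (log2 fold change 2.92 ± 0.50, adjusted p = 4.48e-07). It rested on 13 parental and 105 resistant counts, and without parental replicate 3 the value was 4.39. DESeq2 gave EDA2R a much weaker adjusted p of 0.0167. NGFR, the low-affinity neurotrophin receptor with a death domain, rose from 3.59 ± 1.12 to 11.5 ± 0.676 CPM (1.68 ± 0.19). EDAR, the receptor for ectodysplasin-A1, stood at 0.84 ± 0.34 (adjusted p = 0.0331), a call that was lost in DESeq2 (adjusted p = 0.0570), without a filter on low counts (0.0501), and without parental replicate 2, parental replicate 3 or HCT116oxR replicate 3 (0.74, 0.65 and 0.68). EDAR overlaps the abundant RANBP2.

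In the other direction TNFRSF6B, which encodes the soluble decoy DcR3 for FAS ligand, fell from 43.5 ± 1.52 to 30.9 ± 5.48 CPM (-0.49 ± 0.09, edgeR adjusted p = 9.29e-07). It shares sequence with the read-through transcript RTEL1-TNFRSF6B, which fell by 0.40 ± 0.05. TNFRSF13C, the BAFF receptor gene of B cells, fell by 0.68 ± 0.19, and that call was lost without parental replicate 3 (-0.40, adjusted p = 0.134).

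Among 18 ligand genes 8 were tested, and 4 rose and 1 fell, where 44.1% of all genes were called. Their median log2 fold change was 0.68. TNFSF4, the gene of OX40 ligand, rose from 1.78 ± 0.629 to 9.03 ± 0.587 CPM (2.35 ± 0.23, edgeR adjusted p = 2.51e-16). TNFSF18, the gene of GITR ligand, rose from 0.184 ± 0.0873 to 2.07 ± 0.749 CPM (3.41 ± 0.57), from 7 to 82 counts. EDA, the ectodysplasin gene, rose by 0.94 ± 0.17. The receptor partners were TNFRSF4 (OX40) at 0.39 ± 0.52 (adjusted p = 0.582) and TNFRSF18 (GITR), which rose by 0.41 ± 0.12 (adjusted p = 0.00379).

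**Figure D4:**
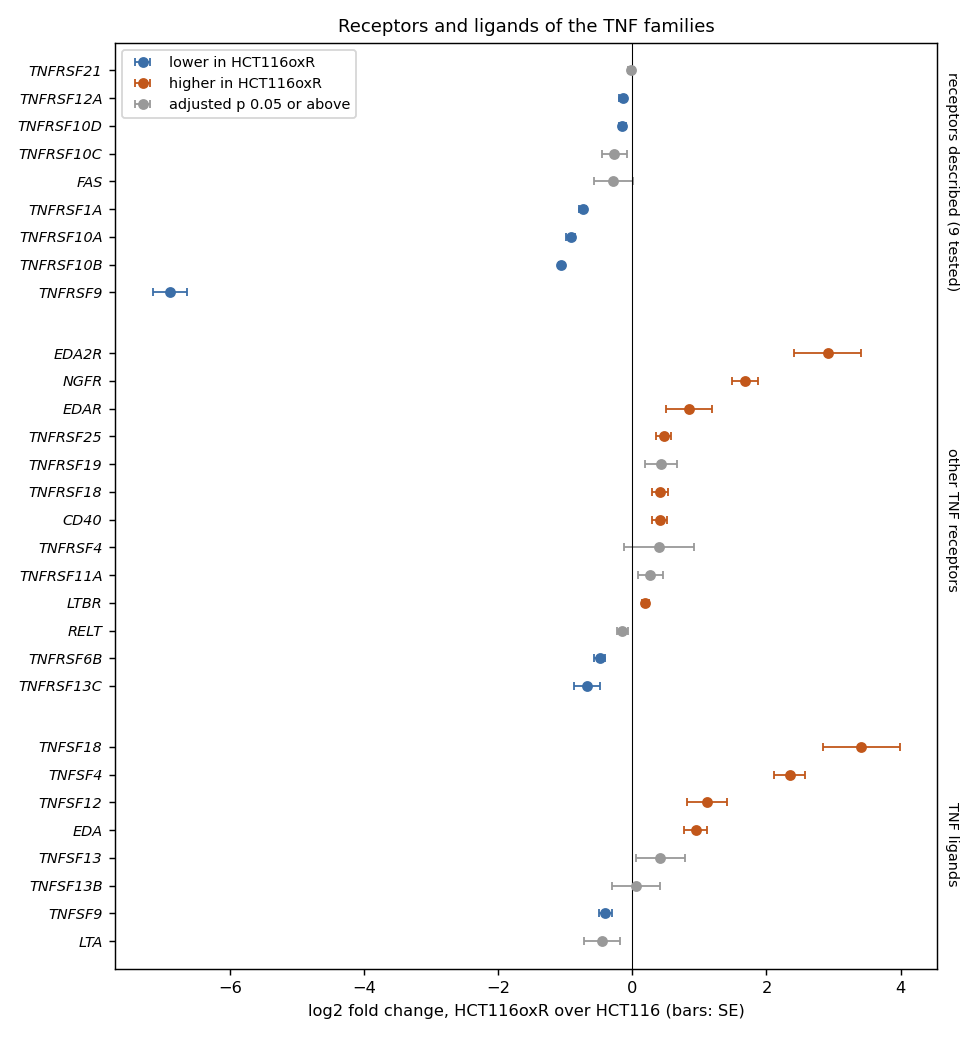
Log2 fold change (HCT116oxR over HCT116, with SE bars) of the tested receptor genes described here, the other tested TNF receptor genes and the tested TNF ligand genes. No gene of the top group passed as higher, whereas 7 of 13 other receptors, 4 of 8 ligands and 22.3% of all genes tested did.

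Genes of the machinery below death receptors were compared next. Of 14 tested genes of the death-inducing complex and its caspases 2 rose, 2 fell and 10 did not pass (edgeR), where 44.1% of all genes were called, with a median log2 fold change of -0.09. FADD, the adaptor, went from 30.1 ± 3.06 to 27.0 ± 0.790 CPM (-0.16 ± 0.09, adjusted p = 0.181). CASP8, the initiator caspase, stood at -0.17 ± 0.08 (adjusted p = 0.0662) and its relative CASP10 at -0.13 ± 0.25 (adjusted p = 0.717). CFLAR, which encodes the caspase-8 inhibitor c-FLIP, fell from 43.7 ± 1.41 to 33.1 ± 1.57 CPM (-0.40 ± 0.08, adjusted p = 1.25e-05).

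CASP6, a caspase gene, rose by 0.38 ± 0.13. BID, which links caspase-8 to mitochondria, rose by 0.30 ± 0.09. Without HCT116oxR replicate 2 the number of these genes called dropped to 2. CASP6 was among those lost (0.34, edgeR adjusted p = 0.0512), and it was also lost without parental replicate 1 (0.32, adjusted p = 0.0747).

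Among adaptors and ubiquitin editors BIRC3 and TNFAIP3 fell most. Of 22 tested genes 8 fell and 5 rose (edgeR), where 44.1% of all genes were called, with a median log2 fold change of -0.16. BIRC3, the gene of the ubiquitin ligase cIAP2 at TNF receptor complexes, had 179, 186 and 176.5 CPM in parental and 16.6, 17.3 and 19.1 CPM in resistant libraries, 10.2-fold lower. Its paralog BIRC2 (cIAP1) fell 1.29-fold, from 135 ± 4.50 to 104 ± 2.65 CPM. TNFAIP3, which encodes the ubiquitin-editing enzyme A20, had 69.6, 73.2 and 70.7 CPM in parental and 8.70, 9.03 and 9.78 CPM in resistant libraries, 7.76-fold lower. The lines were far apart for both BIRC3 and TNFAIP3, which are known NF-kB targets as TNFRSF9 is. Whether NF-kB had a part in these falls was not tested.

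TNIP1, a partner of A20, fell by 0.61 ± 0.06. TRAF5, which couples several TNF receptors to NF-kB, rose from 24.1 ± 1.62 to 35.1 ± 3.28 CPM (0.54 ± 0.09), and SHARPIN, a subunit of the linear ubiquitin ligase on chromosome 8, rose by 0.41 ± 0.10 (edgeR adjusted p = 5.80e-04). TRAF1 stood at -0.44 ± 0.20 (adjusted p = 0.0681). TRAF2, which most cells use, was listed at 0 in all 6 libraries, and TAB2 at 0 in 5 of them, so a 0 in this table says only that no read was assigned to the gene.

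**Figure D5:**
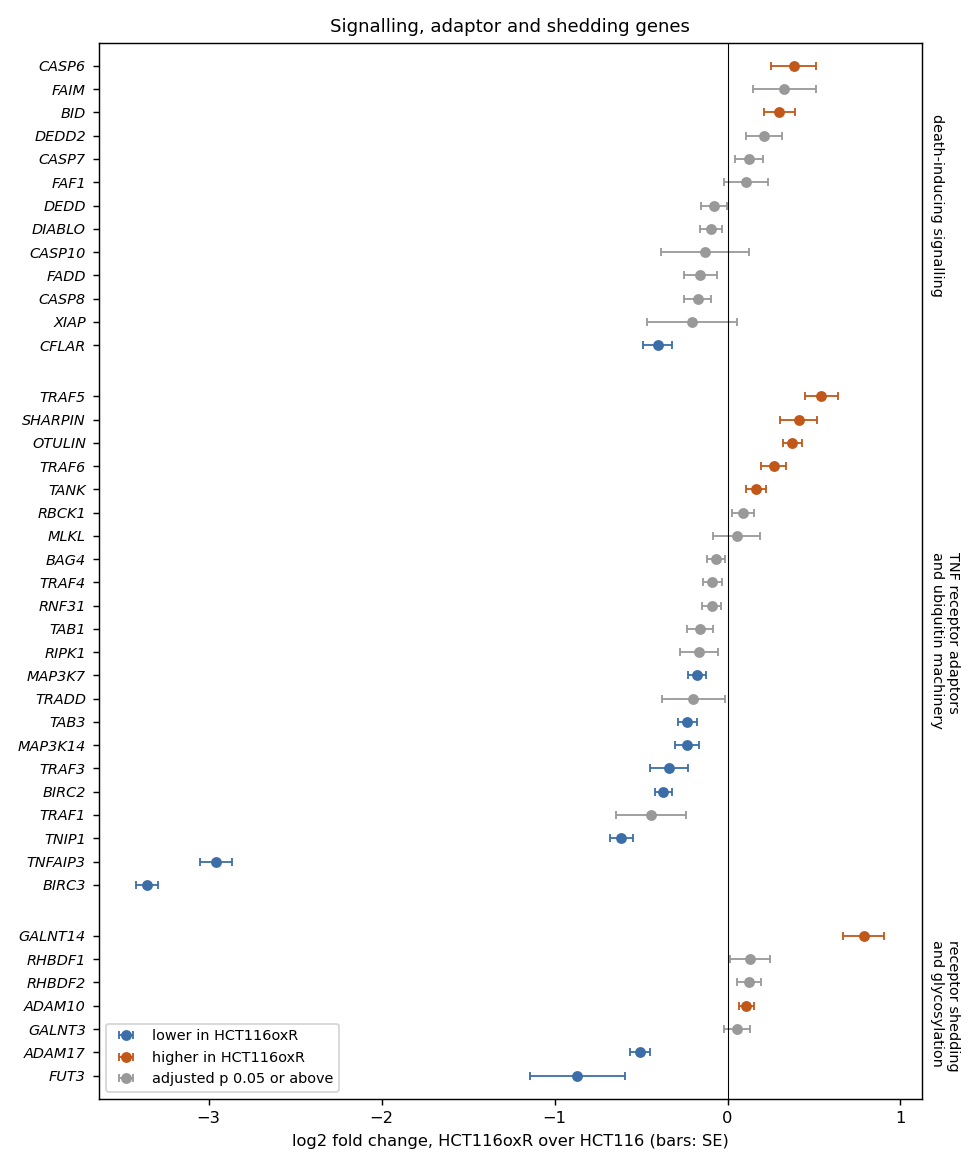
Log2 fold change (HCT116oxR over HCT116, with SE bars) of the tested genes, all but 1, of death-inducing signalling, of TNF receptor adaptors and ubiquitin machinery, and of receptor shedding and glycosylation. BIRC3 (-3.36) and TNFAIP3 (-2.96) stand apart from the others, which lie between -0.87 and 0.79.

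Of 7 tested genes for shedding or glycosylation of these receptors 2 rose and 2 fell (edgeR), where 44.1% of all genes were called. ADAM17, the protease that releases TNF and TNFRSF1A from the surface, fell from 95.01 ± 3.14 to 67.0 ± 0.608 CPM (-0.50 ± 0.06, adjusted p = 2.39e-13). It overlaps IAH1, which had 445 parental and 533 resistant counts. GALNT14, a glycosyltransferase that modifies TRAIL death receptors, rose from 13.1 ± 1.33 to 22.6 ± 2.08 CPM (0.79 ± 0.12). ADAM10 stood at 0.11 ± 0.04 (adjusted p = 0.0243), a call that was lost in DESeq2 (adjusted p = 0.0543), without parental replicate 3 (0.06) and without HCT116oxR replicate 3 (0.10).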

How the data were processed

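The deposited table holds raw counts per gene symbol for 6 total RNA libraries, which the authors aligned to GRCh38 with HISAT2 per the submitters' processing notes. RNA had an integrity number above 8.0 per the labels' protocols. The sources used here do not name the counting tool, annotation release or strand setting, or say how multi-mapped reads were handled. The small RNA table was not used here.

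The edgeR 4.0.16 fit, run in R 4.3.3, used filterByExpr (at least 10 counts in a median library, 15 in all), TMM scaling and the robust quasi-likelihood F test over all genes, 2-sided, Benjamini-Hochberg adjusted with a threshold of 0.05. DESeq2 1.42.0, RLE and upper quartile scaling, no filter, a replicate block and leaving out each library were alternatives. The SE, taken as the size of the log2 fold change divided by √F, is approximate where counts are few, and 95% intervals use it with the fit's degrees of freedom. Replicate libraries differed by more than sampling noise in every pair (chi-square per degree of freedom of at least 2.23). The fit was tested on simulated data with far fewer changed genes and the same dispersion for every gene. That test does not measure the error rate of the calls made here.

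The receptors, gene lists and tests were chosen with earlier results of these data known. Named genes were the 10 receptors, FADD, CASP8, CASP10, CFLAR, TNFSF9, TNFSF10, FASLG, TNF, TNFSF12 and TNFSF11. From each further list up to 5 called genes were added, those with the largest change whose libraries did not overlap, except 1 that is not reported here. TNFRSF1B, TNFRSF4, TNFRSF18, BIRC2, TRAF1, TRAF2 and TAB2 were chosen after their values were seen. Genes around each receptor were placed with the RefSeq table of GRCh38.p14 by their lower coordinate. Exon lengths were not used here, so levels were not compared between genes. RefSeq promoters were matched for 4 of the 10 receptors.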

Additional observations from a re-analysis of the deposited data

How the results depend on the processing

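Among tested genes named by the rule, direction held under every alternative run except for CASP10, which never passed and ranged from -0.32 to 0.088. In all, 19 of their alternative values lost a call, and those of genes reported here stand with the gene. The number of the 10 receptors called lower was 6 in the main test, with DESeq2, with RLE scaling, without a filter and with a replicate block, 5 with upper quartile scaling and 4 to 6 when single libraries were left out. The replicate block left 7565 genes called in place of 7721 and changed no call among the named genes. Same-numbered cultures did not deviate together (correlations of 0.03, -0.06 and -0.04), so the numbers were not treated as pairs. The death-inducing genes called numbered 2 to 4 when single libraries were left out. Widening the neighbourhood from 1 Mb to 5 Mb moved the median log2 fold change to 0.037 around TNFRSF9, -0.0056 around TNFRSF10A, 0.092 around FAS and -0.11 around TNFRSF21. No share per transcript length was run, since exon lengths were not used here. FAS, TNFRSF10C, EDA2R, TNFSF18 and TNFRSF11B are limited by few counts.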
